A study of Mus musculus with 30 samples.

Results

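The unfolded protein response and the integrated stress response were followed through 38 genes in whole mouse kidney. They are the rows of the 2 deposited count tables whose Ensembl identifier maps to a fixed list of symbols, 38 of the 57133 genes in each table. The list was divided by role into 5 branches. Integrated stress response effectors had 7 genes (Atf4, Trib3, Chac1, Ppp1r15a, Sesn2, Nupr1 and Vldlr) and amino acid and one-carbon enzymes had 6 (Asns, Psat1, Phgdh, Shmt2, Mthfd2 and Aldh1l2). ER chaperones and folding enzymes had 14 (Hspa5, Hsp90b1, Hyou1, Sdf2l1, Dnajb9, Dnajb11, Dnajc3, Pdia3, Pdia4, Pdia6, Calr, Canx, Manf and Creld2). ER-associated degradation (ERAD) had 7 (Herpud1, Edem1, Sel1l, Syvn1, Derl1, Derl2 and Derl3), and the sensors with XBP1 had 4 (Atf6, Ern1, Eif2ak3 and Xbp1).

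The data are poly-A RNA counts of 30 kidney libraries. Wild-type (WT) mice were compared with a transgenic genotype (TG) labelled Gsta2-H2BeGFP, a name that joins the glutathione transferase gene Gsta2 to a green fluorescent histone H2B. Unoperated males gave 3 libraries of each genotype, and unoperated females likewise gave 3 of each. Males after nephrectomy alone (NX, removal of a kidney) gave 3 WT and 3 TG libraries. Males given ischemia-reperfusion injury (IRI) on top of nephrectomy, with blood flow to the kidney stopped and then restored, gave 6 WT and 6 TG libraries, sampled 4 hours after injury. Both IRI and NX mice had therefore lost a kidney, and injured females were not part of the design. The time of sampling after NX, the strain, the age and the way the transgene was inserted are not given in the sources used here, nor is it said whether each library is a separate animal. P-values therefore measure the spread between these libraries, which may be partly technical. Replicate numbers follow the labels, and the library without a number is called replicate 0.

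When proteins misfold in the endoplasmic reticulum (ER), 3 sensors in its membrane respond. PERK (gene Eif2ak3) phosphorylates the translation factor eIF2, which slows most protein synthesis but favours translation of ATF4; IRE1 (Ern1) splices the mRNA of XBP1; and ATF6 is cut in the Golgi to release a transcription factor. XBP1 and ATF6 raise chaperones and ERAD genes, while ATF4 raises genes for amino acid supply and for recovery from the stress. Other kinases, among them the amino acid sensor GCN2 (Eif2ak4), also phosphorylate eIF2, so ATF4 targets can rise without misfolding in the ER, and this shared arm is called the integrated stress response. In the kidney these pathways are best known from tubule cells, which are rich in secretory and transport proteins and are the main site of ischemic damage.

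Totals ran from 49040915 to 66446450 counts per library without surgery and from 59574069 to 91354407 after NX or IRI. Levels are CPM, counts relative to library size scaled by TMM within each of the 2 tables, and no test was made across the tables. The proximal tubule markers were abundant in every group, and of 6 pancreas markers only Cela1 was above trace level. EGFP was at 0 in the WT libraries except the one labelled WT IRI replicate 1, which had 2.59 CPM, within the 1.17 to 6.31 CPM of the TG IRI libraries. WT NX replicate 0 had a summed level of 6 adipocyte markers of 219 CPM, while the other NX libraries had 6.1 or less. WT IRI replicate 5 had the highest sums among the NX and IRI libraries for endothelium (593 CPM), podocyte (529 CPM) and distal tubule markers (9325 CPM). It also had the highest leukocyte (156 CPM) and plasma cell sums (200 CPM) among them. Counts of members called in IRI against NX and in TG against WT after NX or IRI are given with and without these libraries.

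Promoter sequences are shown first because the branches differ in the motifs their promoters hold, and these motifs were read against the changes below. Windows from 250 bases before to 50 bases after a start site were taken from RefSeq on GRCm38.p6; 33 of the 38 genes had a window, among 27025 genes in all. ERSE, the ER stress element bound by ATF6 and NF-Y, was searched as CCAAT and CCACG with 9 bases of any kind between them, the XBP1-type core UPRE as TGACGTGG, and the C/EBP-ATF response element (CARE) bound by ATF4 as TGATGNAAN, each on both strands. The 3 patterns do not contain each other. ERSE was present in 37 of 27025 genes (0.137%) and in 9 of the 33 genes of the list (27.3%, exact 95% binomial interval 13.3 to 45.5). They were 7 of 12 chaperones with a window (Calr, Canx, Creld2, Dnajc3, Hsp90b1, Hspa5 and Pdia6) and the ERAD genes Derl3 and Syvn1, and none of the 7 effectors. CARE was present in 1215 of 27025 genes (4.5%) and in 6 of the 33 (18.2%, interval 6.98 to 35.5), namely Chac1, Nupr1, Trib3, Vldlr, Asns and Herpud1. UPRE was present in 193 genes (0.714%) and in none of the 33, where 0 of 33 has an exact upper bound of 10.6%. The 38 genes were chosen for their roles in these pathways and are not a random sample of genes. A higher motif share than in all genes may follow from that choice, and the intervals do not test it. A match to these letters is not evidence of binding, and their absence says only that the letters are not in this window.

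The ERSE matches before the start site are shown on the gene's strand with 10 bases on each side, with the fixed letters of the motif in capitals. In Calr, Creld2, Derl3 and the second match of Hsp90b1 the motif reads on the opposite strand.
Hspa5, chr2:34772015-34772053: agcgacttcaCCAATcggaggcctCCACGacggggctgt
Hsp90b1, chr10:86705628-86705666: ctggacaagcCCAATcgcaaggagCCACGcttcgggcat
Hsp90b1, chr10:86705523-86705561: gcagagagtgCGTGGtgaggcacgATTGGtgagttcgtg
Calr, chr8:84847065-84847103: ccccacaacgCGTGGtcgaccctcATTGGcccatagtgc
Canx, chr11:50325790-50325828: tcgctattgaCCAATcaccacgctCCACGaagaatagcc
Creld2, chr15:88819510-88819548: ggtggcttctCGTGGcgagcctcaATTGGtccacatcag
Dnajc3, chr14:118937817-118937855: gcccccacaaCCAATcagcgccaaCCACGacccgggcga
Pdia6, chr12:17266481-17266519: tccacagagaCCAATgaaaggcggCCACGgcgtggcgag
Derl3, chr10:75893232-75893270: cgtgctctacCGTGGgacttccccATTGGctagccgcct
Syvn1, chr19:6046522-6046560: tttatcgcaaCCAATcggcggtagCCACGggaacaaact

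The CARE matches before the start site are shown the same way, since 5 of the 6 genes that hold one rose after IRI. Only the match of Asns reads on the gene's own strand. The match of Trib3 lies after its start site and is not printed.
Chac1, chr2:119351038-119351066: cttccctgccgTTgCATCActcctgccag
Nupr1, chr7:126625563-126625591: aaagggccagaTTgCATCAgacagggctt
Asns, chr6:7693214-7693242: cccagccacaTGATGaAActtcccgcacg
Herpud1, chr8:94386306-94386334: accacggcgggTTgCATCAgcccgcaccc
Vldlr, chr19:27216809-27216837: agcagcaatagTTgCATCAgcgctcctag

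For context, the 250 bases before the start are printed for Chac1 (plus strand, chr2:119350992-119351241), the gene with the largest rise, and for Hspa5 (plus strand, chr2:34771840-34772089), the only one of the 9 ERSE genes that rose after IRI.
Chac1: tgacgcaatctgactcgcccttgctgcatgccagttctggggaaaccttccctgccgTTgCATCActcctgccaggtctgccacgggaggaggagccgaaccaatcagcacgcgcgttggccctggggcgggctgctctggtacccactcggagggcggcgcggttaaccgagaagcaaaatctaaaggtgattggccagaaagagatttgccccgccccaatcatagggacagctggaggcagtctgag
Hspa5: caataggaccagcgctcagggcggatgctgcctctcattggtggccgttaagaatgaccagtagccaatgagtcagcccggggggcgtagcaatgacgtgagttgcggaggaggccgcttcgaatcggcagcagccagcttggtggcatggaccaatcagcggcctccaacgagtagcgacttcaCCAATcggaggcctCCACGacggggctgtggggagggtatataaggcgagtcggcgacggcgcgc

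Against NX, 6 of the 7 effectors of the integrated stress response and 2 of the 14 ER chaperones rose after IRI in each genotype. A gene is said to have risen or fallen where the edgeR quasi-likelihood test gave an adjusted p under 0.05, with Benjamini-Hochberg adjustment over all genes tested. In WT males 14 of the 38 genes rose (36.8%) and 3 fell (7.89%), against 16.8% of 19264 genes tested that rose and 14.1% that fell (30.9% in either direction). NX and IRI libraries did not overlap for 14 of the 38 (36.8%) in WT, against 26% of all genes, and for 15 (39.5%) in TG, against 31.8%. In TG males 16 rose (42.1%) and 1 fell (2.63%), against 16.4% and 13% of all genes (29.4% in either direction). All 38 genes passed the filter on low counts. The branches differed in size of change: the median log2 change in WT was 2.34 for effectors, 0.34 for amino acid and one-carbon enzymes, 0.31 for the sensors with Xbp1, 0.04 for chaperones and -0.17 for ERAD, and -0.01 over all genes tested. In TG the medians were 2.54, 0.57, 0.49, 0.06 and 0.09 in the same order, with -0.01 over all genes. The proximal tubule marker sum was 30259 to 35934 CPM in WT NX and 20907 to 26064 CPM in WT IRI libraries, and overlapped in TG (25175 to 32304 and 22694 to 27731 CPM). In WT the sum is carried by Kap (19483 to 20239 and 10715 to 14945 CPM). The other markers overlapped in WT. Among them were Lrp2 (1883 to 3417 and 965 to 2103 CPM) and Cubn (412 to 761 and 279 to 449 CPM). Slc5a2 (480 to 817 and 526 to 831 CPM) and Miox (1612 to 1963 and 1707 to 2080 CPM) overlapped as well. In TG, every IRI library was below every NX library for Lrp2 (1993 to 2683 and 895 to 1345 CPM). The same held for Cubn (441 to 577 and 305 to 389 CPM) and Slc5a12 (389 to 411 and 243 to 317 CPM). The other markers, Kap among them, overlapped in TG. The part of cell composition in these changes was not tested. In bulk tissue, fewer cells of a type and less RNA per cell cannot be told apart.

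**Figure D1:**
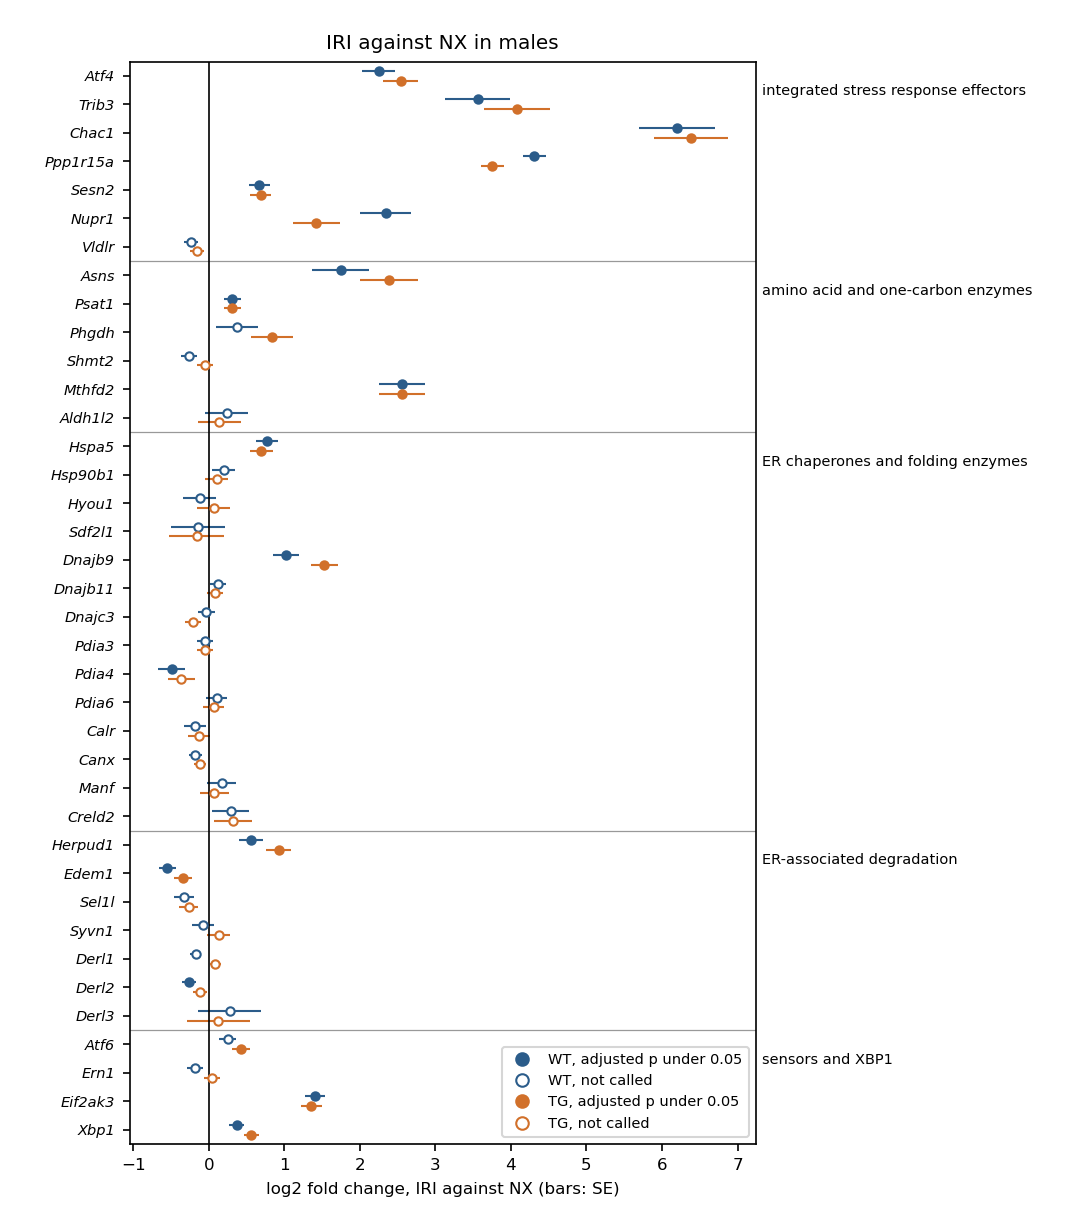
Log2 fold change of each of the 38 genes in IRI against NX males, with SE bars, by branch, for WT (blue) and TG (orange); filled points have an adjusted p under 0.05. The effectors Chac1, Ppp1r15a, Trib3, Atf4 and Nupr1 lie far to the right, while 11 of the 14 chaperones in WT and 12 in TG are open points.

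Chac1 (ENSMUSG00000027313, GRCm39 chromosome 2, 119181710 to 119184862, plus strand), whose enzyme breaks down glutathione, rose the most. Its level was 0.121, 0.576 and 0.161 CPM in the WT NX libraries, from 8, 38 and 10 counts, and 0.451, 0.497 and 0.401 CPM in the TG NX libraries. After IRI it was 10.4 to 34.8 CPM in WT (median 18.4, n = 6) and 27.8 to 42.7 CPM in TG (median 38.5, n = 6). Every IRI library was above every NX library, and the TG libraries were closer together than the WT ones. The log2 change was 6.2 ± 0.50 SE in WT (73.4-fold, adjusted p = 2.37e-08) and 6.38 ± 0.49 in TG (adjusted p = 1.2e-08); with so few counts in WT NX its size is imprecise.

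Ppp1r15a (ENSMUSG00000040435, chromosome 7, 45172340 to 45175692, minus strand) encodes GADD34, which recruits the phosphatase that reverses eIF2 phosphorylation. It had 5.44, 5.90 and 6.19 CPM in WT NX, 7.12, 5.48 and 7.70 in TG NX, 91.2 to 126 in WT IRI (median 122) and 76.6 to 111 in TG IRI (median 87.7). NX and IRI libraries did not overlap, and the rise was 4.31 ± 0.16 in WT and 3.75 ± 0.15 in TG. Relative to its SE it was the clearest change of the list, with an adjusted p of 6.04e-13 in WT and 3.23e-12 in TG.

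Atf4, the transcription factor at the centre of the response, had 58.3, 52.1 and 41.0 CPM in WT NX and 74.3, 46.6 and 45.6 in TG NX. After IRI it was 157 to 318 CPM in WT (median 236) and 301 to 383 in TG (median 308), again with no overlap between NX and IRI. Its mRNA rose by 2.25 ± 0.22 in WT and 2.54 ± 0.23 in TG. Protein was not measured, although ATF4 is controlled largely at translation.

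Trib3, a pseudokinase that dampens ATF4 signalling, rose by 3.56 ± 0.43 in WT and 4.08 ± 0.43 in TG. It went from 0.29 to 1.03 CPM in WT NX to 3.34 to 11.3 in WT IRI, and from 0.482 to 0.776 in TG NX to 7.25 to 13.4 in TG IRI. Nupr1, a small stress-induced chromatin protein, went from 1.96 to 4.48 CPM to 11.4 to 16.8 in WT (2.34 ± 0.33) and from 3.25 to 9.29 to 12.2 to 26.3 in TG (1.43 ± 0.31). Unoperated males had 7.18 to 22.98 CPM of Nupr1 in WT and 7.76 to 27.8 in TG, which overlap the ranges after IRI. No test was made between them. Sesn2, which restrains mTORC1 signalling, rose less, by 0.67 ± 0.14 in WT and 0.69 ± 0.14 in TG. Vldlr, a lipoprotein receptor listed here as an ATF4 target, did not pass the test: its change was -0.23 ± 0.10 in WT (adjusted p = 0.0723) and -0.16 ± 0.10 in TG (adjusted p = 0.244). It is the one effector whose NX and IRI libraries overlapped.

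**Figure D2:**
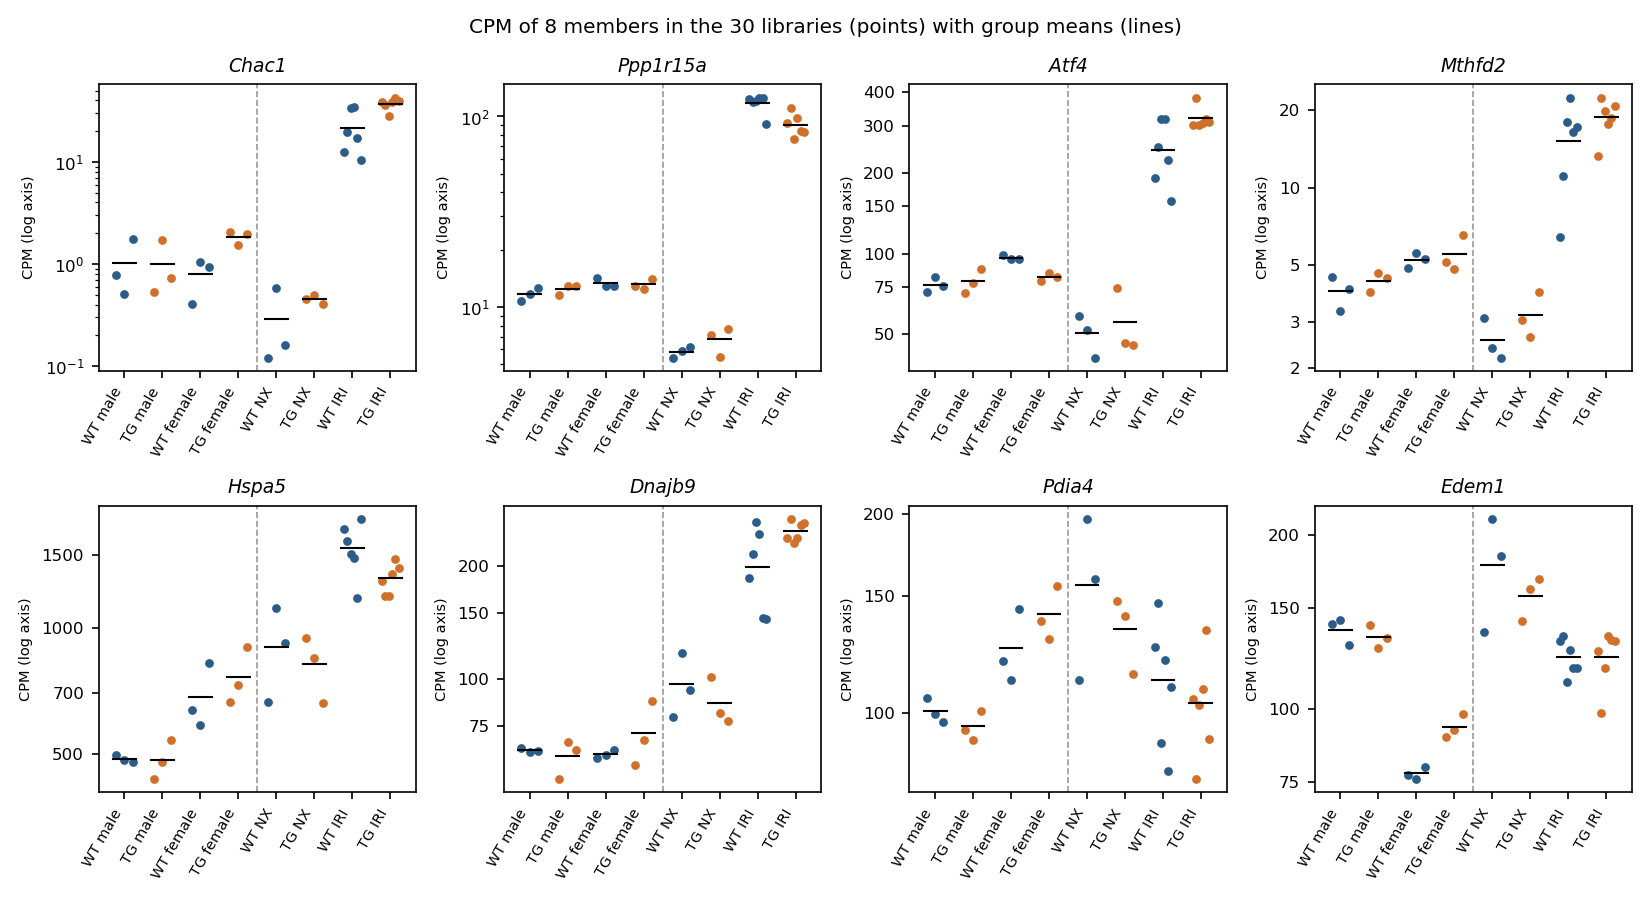
CPM on a log axis in each of the 30 libraries for 8 genes, with WT in blue, TG in orange, group means as lines and a dashed line between the 2 count tables. Chac1, Ppp1r15a, Atf4, Mthfd2, Hspa5 and Dnajb9 are higher in every IRI library than in any NX library, Pdia4 and Edem1 have lower group means after IRI, and Edem1 is lower in females.

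The amino acid and one-carbon enzymes split after IRI. Mthfd2, the mitochondrial folate enzyme, had 3.10, 2.38 and 2.19 CPM in WT NX and 6.46 to 22.3 in WT IRI (median 16.9); in TG it went from 3.07, 2.63 and 3.93 to 13.3 to 22.4 (median 19.3). It rose by 2.56 ± 0.31 in both genotypes. Asns, asparagine synthetase, rose by 1.75 ± 0.37 in WT and 2.38 ± 0.39 in TG. In WT its groups overlapped, because NX replicate 0 had 5.48 CPM and IRI replicate 0 had 3.84; the other WT NX libraries had 1.82 and 2.16 and the other WT IRI libraries 9.34 to 16.6. Psat1, of the serine synthesis pathway, rose by 0.31 ± 0.11 in both genotypes (adjusted p = 0.0424 in WT and 0.0454 in TG). Its call was lost in 8 of 18 alternative analyses in WT and in 11 of 17 in TG. Phgdh, which starts the same pathway, rose in TG (0.84 ± 0.28, adjusted p = 0.03), where IRI libraries spread from 14.7 to 36.7 CPM and overlapped the NX range of 11.6 to 15.8; its value in WT was 0.37 ± 0.27 (adjusted p = 0.333). This call was lost in 6 of 17 alternative analyses, namely with upper-quartile factors, with the replicate block, and without TG IRI replicate 1 or 4 or TG NX replicate 1 or 2. Shmt2 and Aldh1l2, both mitochondrial enzymes of the same folate cycle, did not pass in either genotype, at -0.26 ± 0.10 and 0.24 ± 0.28 in WT and -0.05 ± 0.10 and 0.14 ± 0.28 in TG.

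Of the 14 chaperones and folding enzymes, 2 rose in each genotype (14.3%). That share is near the 16.8% of all genes that rose in WT and the 16.4% in TG. Hspa5 (ENSMUSG00000026864, chromosome 2, 34661982 to 34667559, plus strand) encodes BiP, the main ER chaperone that also holds the sensors inactive. It had 666, 1117 and 921 CPM in WT NX and 1181 to 1828 in WT IRI (median 1564), and 945, 851 and 661 in TG NX and 1193 to 1469 in TG IRI (median 1326). The groups did not overlap, and the rise was 0.77 ± 0.15 in WT (1.7-fold) and 0.70 ± 0.15 in TG. Per kilobase of counted exon its mean level was the highest of the list in WT IRI, at 368 ± 53.8 CPM per kilobase (SD, n = 6), followed by Herpud1 at 281 ± 59.3, whose spread overlapped it, and Calr at 248 ± 28.6. Calr had the highest mean in WT NX, at 278 ± 49.8. Dnajb9, a co-chaperone of BiP, went from 79.5, 118 and 93.8 CPM to 145 to 261 in WT (1.02 ± 0.17) and from 101, 81.2 and 77.6 to 230 to 267 in TG (1.53 ± 0.18).

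The other 12 chaperones did not rise against NX. IRI was not tested against unoperated kidneys, and NX levels of some chaperones differed from unoperated ones, as given further below for a few genes. Pdia4, a disulfide isomerase, fell in WT by 0.49 on the log2 scale (SE 0.18, adjusted p = 0.0435), with overlapping groups of 112.1, 196 and 159 CPM in NX and 81.7 to 146 in IRI; in TG its value was -0.36 ± 0.18 (adjusted p = 0.142). The WT call was lost in 8 of 18 alternative analyses, with the replicate block, with only the compared groups in the fit, and without WT IRI replicate 2, 3, 4 or 5 or WT NX replicate 1 or 2. The remaining 11 lay between -0.18 (Calr, Canx) and 0.29 (Creld2) in WT and between -0.21 (Dnajc3) and 0.32 (Creld2) in TG, and their NX and IRI libraries overlapped. Widest within the groups was Sdf2l1, a partner of BiP, with 7.72, 22.4 and 12.8 CPM in WT NX and a difference of -0.15 ± 0.36. The chaperones varied together between NX libraries: WT replicate 0 had the lowest value of its group for each of Hspa5, Hsp90b1, Hyou1, Sdf2l1, Pdia4, Calr and Manf, and WT replicate 1 the highest. WT NX replicate 0 is the library with adipocyte transcripts, whose part in this was not tested.

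Of the ERAD genes, Herpud1 rose and Edem1 fell in both genotypes. Herpud1, an ER membrane protein that organises the degradation complex, had 369, 534 and 418 CPM in WT NX and 441 to 794 in WT IRI, with overlap (0.56 ± 0.16, adjusted p = 0.0121), and 414, 346 and 352 in TG NX and 597 to 765 in TG IRI, with none (0.92 ± 0.16, adjusted p = 0.000241). Edem1 (ENSMUSG00000030104, chromosome 6, 108805602 to 108836317, plus strand), a mannosidase-like protein that directs glycoproteins to degradation, had 136, 214 and 184 CPM in WT NX and 111.5 to 134 in WT IRI. In TG it had 142, 162 and 168 after NX and 98.6 to 134 after IRI. Its groups were apart in both genotypes, and it fell by 0.55 in WT (SE 0.11, adjusted p = 0.00106) and by 0.34 in TG (SE 0.11, adjusted p = 0.0293). Derl2, a membrane protein of the export channel, fell in WT by 0.26 (SE 0.09, adjusted p = 0.0378) and was at -0.11 ± 0.09 in TG; its WT call was lost in 7 of 18 alternative analyses. Sel1l and Syvn1, the adaptor and the ubiquitin ligase, and Derl1 and Derl3 did not pass in either genotype.

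Leaving out WT NX replicate 0 and the WT IRI library with EGFP together, an analysis chosen after the data were seen, 11 genes rose and 8 fell in WT. Psat1, Herpud1 and Xbp1 no longer passed (adjusted p = 0.341, 0.125 and 0.0637), and Shmt2, Canx, Sel1l, Syvn1 and Derl1 fell in addition. Without WT NX replicate 0 alone the counts were 12 and 7, and without WT IRI replicate 1 alone 13 and 5. Without WT IRI replicate 5 they were 14 and 1, as without WT IRI replicate 2 or 4 or WT NX replicate 1, without WT NX replicate 2 they were 13 and 1, and without WT IRI replicate 3 they were 14 and 2. In TG the 1 gene that fell no longer passed without IRI replicate 1 or 2 or NX replicate 1 or 2. The number of members that fell thus moved with single libraries, and it moved with the scaling as well. With upper-quartile factors 9 members fell in WT and 7 in TG. That scaling moved the median of all genes to -0.10 in WT and -0.14 in TG, and lowered the share of higher calls among all genes called from 54.3% to 41.5% in WT and from 55.7% to 36.8% in TG.

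Among the sensors, Eif2ak3 (PERK) went from 35.4, 39.5 and 43.7 CPM in WT NX to 88.3 to 142 in WT IRI and from 44.2, 41.9 and 42.8 to 98.9 to 119 in TG. Its NX and IRI libraries were far apart, and it rose by 1.41 ± 0.14 in WT and 1.36 ± 0.14 in TG. Xbp1 rose by 0.37 ± 0.10 in WT, from 140, 180 and 158 CPM to 192 to 221, and by 0.56 ± 0.10 in TG, from 159, 120 and 130 to 178 to 230; gene counts do not tell its spliced from its unspliced mRNA. Atf6 rose in TG (0.43 ± 0.11, adjusted p = 0.00815), from 67.6 to 81.3 CPM to 88.6 to 108, and had 0.25 ± 0.11 in WT (adjusted p = 0.102). Ern1 (IRE1) did not pass in either, at -0.18 ± 0.11 in WT and 0.05 ± 0.11 in TG. Of the 14 members that rose in WT all 14 also rose in TG, where Atf6 and Phgdh rose too; both comparisons have their own NX libraries.

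The changes were set beside the promoter motifs, without a test of the difference between motifs. Of the 6 with CARE 5 rose in each genotype, all except Vldlr, and their median log2 change was 2.04 in WT and 1.90 in TG. Of the 9 with ERSE 1 rose in each genotype, Hspa5, and the median was 0.10 in both. Of all genes tested 16.8% rose in WT and 16.4% in TG, so 1 of 9 is near the background. Hsp90b1, which holds 2 ERSE matches, had 0.20 ± 0.15 in WT and 0.10 ± 0.15 in TG. Ppp1r15a, Atf4, Sesn2, Psat1, Mthfd2, Eif2ak3, Xbp1 and Dnajb9 also rose, and none of the 3 patterns was found in their windows. CARE was held by 4 of the 7 effectors, a branch of which 6 rose, so motif and branch cannot be told apart here.

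Branch levels were also set side by side over the 8 groups, as the mean log2 CPM of a branch's genes in a library minus the mean of the WT males of the same table (unoperated, or NX). The effectors stood at 2.46 to 3.10 in WT IRI and 2.80 to 3.23 in TG IRI libraries, and at most at 0.54 in NX. Without surgery they were at most at 0.42 above unoperated WT males. That zero differs from the one used for NX and IRI, so these levels cannot be compared across the 2 tables. Amino acid and one-carbon enzymes were at 0.56 to 1.05 in WT IRI and 0.72 to 1.11 in TG IRI, above the highest NX library at 0.21. Sensors with XBP1 were at 0.30 to 0.75 and 0.53 to 0.68, above the highest NX library at 0.11. Chaperones overlapped between NX (-0.33 to 0.29) and IRI (-0.27 to 0.42), and so did ERAD genes, at -0.40 to 0.32 and -0.25 to 0.24. Chaperones and effectors did not rank the injured libraries alike: TG IRI replicate 1 had the highest effector level of all (3.23) and the lowest chaperone level of the IRI libraries (-0.27), while TG IRI replicate 4 had the highest chaperone level (0.42) with 3.04 for effectors.

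**Figure D3:**
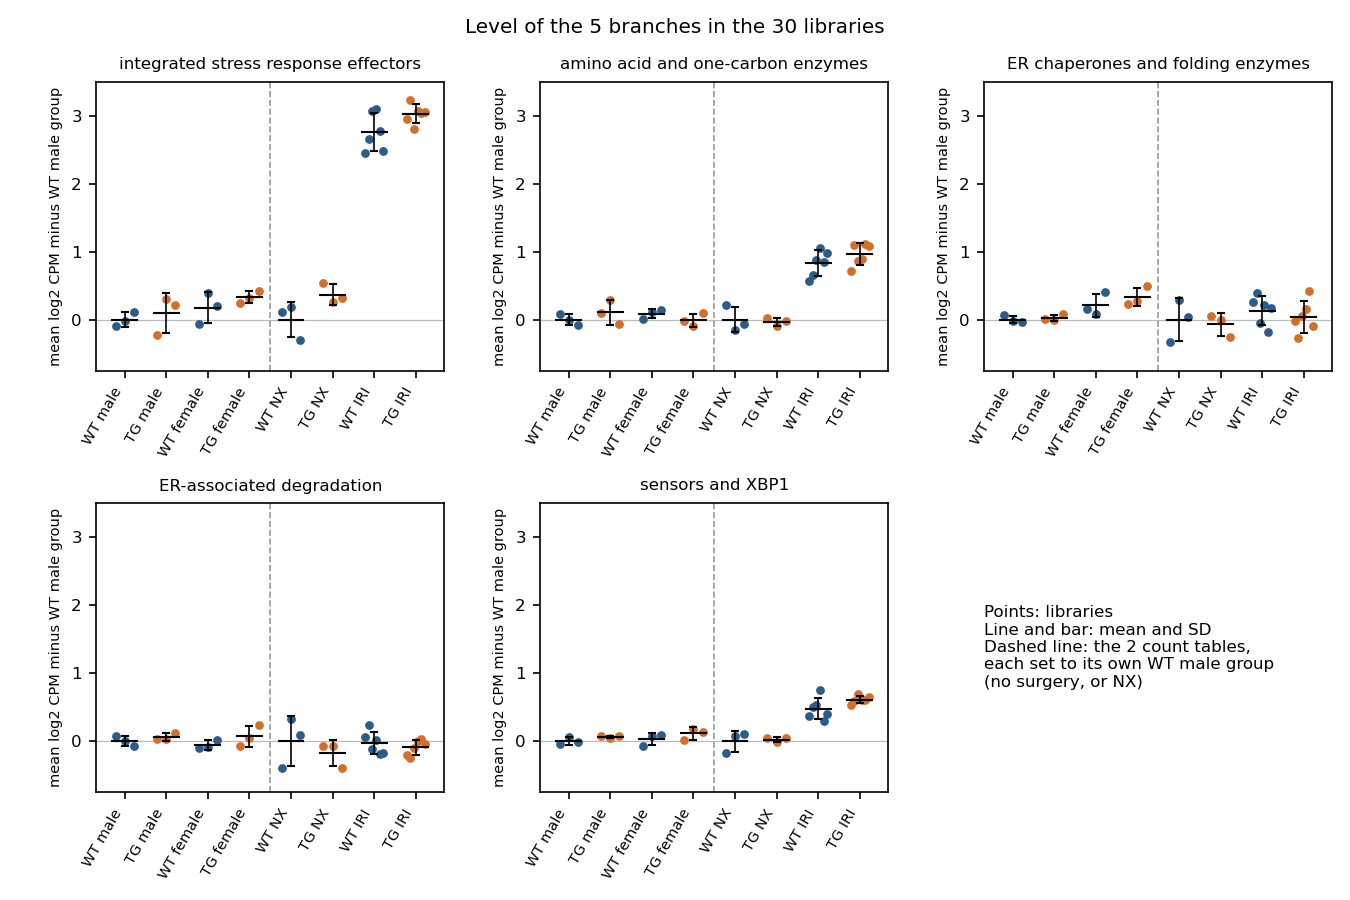
Level of each branch in the 30 libraries, as mean log2 CPM minus the WT male mean of the same count table, with group means and SD; the dashed line separates the 2 tables. Effectors lie between 2.46 and 3.23 after IRI, chaperones and ERAD genes overlap between NX and IRI, and the mean chaperone level is higher in females than in males without surgery, in both genotypes.

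Other genes of these pathways, from lists that share no member with the 38, were counted in the same fits, where 16.8% of all genes rose and 14.1% fell in WT. In WT, of 23 further ATF4-type targets 12 rose and 2 fell, led by Slc7a11, the cystine importer (3.53 ± 0.63), and Ddit3, which encodes the transcription factor CHOP (3.01 ± 0.20). Slc7a11 had 0.193 ± 0.142 CPM in NX (SD, n = 3) and 2.30 ± 1.45 in IRI (n = 6), so the size of its change is imprecise. Ddit3 had 5.79 ± 1.41 CPM in NX and 47.4 ± 5.95 in IRI. Those that fell were Cth and Cbs, the enzymes that make cysteine from homocysteine, by 0.54 and 0.47. Of 12 aminoacyl-tRNA synthetases 8 rose and none fell, with Cars (0.94 ± 0.16) and Aars (0.75 ± 0.11) ahead. Of 12 genes for eIF2, its exchange factor eIF2B, its kinases and phosphatase partners, 2 rose and Ppp1ca fell by 0.23. The 2 were Eif2ak4 (GCN2, 0.83 ± 0.16) and Eif2s2, a subunit of eIF2 (0.59 ± 0.13).

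Among 19 other ER folding and redox genes 1 rose, Fkbp14 (0.47 ± 0.15), and 5 fell, with Pdia5 (by 0.42) and Txndc5 (by 0.33) at the lower end. Of 16 other ERAD genes 2 rose, the ubiquitin-conjugating enzyme Ube2g2 (2.01-fold) and Selenok (0.29 ± 0.08), and 4 fell, with Edem3 (by 0.32) and Aup1 (by 0.30) at the lower end. Sec63 (0.20 ± 0.07) was the one of 16 translocation genes to rise, and none fell. Of 10 other sensors and their proteases 1 rose, Creb3, and 3 fell, including Mbtps1 and Mbtps2, which cut ATF6 (by 0.31 and 0.32). In 13 other serine, glycine and one-carbon genes 1 rose, the glycine-cleaving enzyme Gldc (0.58 ± 0.21), and 2 fell, Sfxn1 (by 0.33) and Mthfd1 (by 0.22). Of 10 genes of the mitochondrial unfolded protein response 3 rose and 1 fell, Dnaja3 (by 0.45). The chaperonin pair Hspd1 and Hspe1 rose by 0.77 ± 0.17 and 0.94 ± 0.20. In TG the counts were 13 and 1 for the ATF4-type targets, 9 and 0 for the synthetases, 4 and 0 for the eIF2 genes, 1 and 1 for ER folding and redox, 6 and 0 for ERAD, 2 and 0 for translocation, 1 and 1 for sensors, 1 and 3 for one-carbon genes and 2 and 1 for the mitochondrial list, against 16.4% of all genes that rose and 13% that fell. Clearly above the share of all genes that rose were the ATF4-type targets (52.2% in WT, 56.5% in TG) and the synthetases (66.7% and 75%). The other ERAD genes were nearer to it in WT (12.5% rose and 25% fell) but above it in TG (37.5% and 0%). Of the eIF2 genes 16.7% rose in WT and 33.3% in TG, and of the mitochondrial list 30% and 20%. For one-carbon genes 7.69% rose and 15.4% fell in WT, and 7.69% and 23.1% in TG.

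Genotype did not change any of the 38 genes past the threshold. TG was compared with WT in 4 settings, and edgeR called 2 of 17100 genes after NX (0.0117%, with 0.00585% higher and 0.00585% lower in TG), 12 of 17111 after IRI (0.0701%, with 0.00584% higher and 0.0643% lower), 1 of 19126 in males without surgery (0.00523%) and 8 of 19126 in females without surgery (0.0418%). Those 8 divided into 4 higher (0.0209%) and 4 lower (0.0209%); with upper-quartile factors 19 genes were called, 15 higher and 4 lower. None of the genes called by edgeR was among the 38. Unadjusted p-values under 0.05 were found for 3 of the 38 after NX (7.89%, against 6.77% of all genes), 7 after IRI (18.4% against 14.1%), 0 in males (0% against 5.22%) and 5 in females without surgery (13.2% against 9.09%). DESeq2 called 1 member in each of 2 comparisons, Ppp1r15a after IRI (-0.37 ± 0.11, adjusted p = 0.0338) and Edem1 in females (0.27 ± 0.07, adjusted p = 0.0167).

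After IRI the smallest p-values were those of Ppp1r15a and Ern1. Ppp1r15a was 118 ± 13.2 CPM in WT and 90.7 ± 12.4 in TG (SD, n = 6 each), lower in TG by 0.37 on the log2 scale (SE 0.10, adjusted p = 0.162 with edgeR). Ern1 was 37.1 ± 4.02 and 45.6 ± 4.61 CPM, a difference of 0.30 ± 0.09 (adjusted p = 0.186). Both overlapped between genotypes, as did all 38 genes after IRI, where 0.801% of all genes did not, and after NX, where 12.6% did not. Chac1 and Atf4 had higher means in TG, by 0.80 ± 0.25 and 0.40 ± 0.15, and neither passed (adjusted p = 0.229 and 0.274). For 37 of the 38 genes the estimate with 2 SE on each side stayed inside a 2-fold difference; the exception was Chac1. WT IRI replicate 5 had the lowest Chac1, Atf4 and Ppp1r15a of its group (10.4, 157 and 91.2 CPM). With any single IRI library left out, replicate 5 and the WT library that holds EGFP among them, edgeR again called none of the 38.

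With any single NX library left out, WT NX replicate 0 among them, edgeR also called none of the 38 in TG against WT after NX. After NX the smallest p-values were those of Nupr1 (1.18 ± 0.42) and Phgdh (-0.34 ± 0.14), with adjusted p = 0.73 for both. For 33 of the 38 genes the range of 2 SE stayed inside 2-fold. In males without surgery they were Ern1 (0.16 ± 0.08, adjusted p = 0.916) and Calr (0.17 ± 0.10, adjusted p = 0.922), and 35 genes stayed inside 2-fold. Females without surgery had them for Edem1 (77.5 ± 1.88 CPM in WT and 93.2 ± 4.43 in TG, SD, n = 3, 0.27 ± 0.06, adjusted p = 0.188) and Atf4 (96.6 ± 2.12 and 81.9 ± 2.54 CPM, -0.24 ± 0.08, adjusted p = 0.337), both with groups that did not overlap. Groups were apart for 4 of the 38 genes in females (10.5%), against 16.4% of all genes tested, and for 2 in males (5.26%), against 9.14%.

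The change with injury was also compared between genotypes directly. In this interaction edgeR called 0 of 19264 genes (0%), and 4 of the 38 had an unadjusted p under 0.05 (10.5%, against 9.59% of all genes). The smallest were Ppp1r15a, whose rise was smaller in TG by 0.56 ± 0.18 (adjusted p = 0.398), and Derl1 (0.26 ± 0.10, adjusted p = 0.432). Atf6 and Phgdh, which passed in TG and not in WT, had interactions of 0.17 ± 0.16 and 0.46 ± 0.38, and Pdia4 and Derl2, which passed in WT and not in TG, 0.13 ± 0.26 and 0.15 ± 0.13. A difference between genotypes in the injury response was therefore not shown for any of the 38.

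In kidneys without surgery, 6 of the 14 chaperones in WT and 7 in TG were higher in females, while of the 7 ERAD genes 3 were lower in each genotype and 1, Herpud1, was higher in TG. The difference between the branches was not tested. In WT 8 of the 38 genes were higher in females (21.1%) and 5 lower (13.2%), against 10.1% and 11.3% of the 19126 genes tested (21.3% in either direction). In TG 9 were higher (23.7%) and 5 lower (13.2%), against 9.87% and 11.3% (21.2% in either direction). Females and males did not overlap for 18 of the 38 genes in WT (47.4%) and 17 in TG (44.7%), against 36.8% and 38.5% of all genes. Higher in both genotypes were 7 members, the chaperones Hspa5, Hsp90b1, Hyou1, Pdia4, Manf and Creld2, and Xbp1. Lower in both were 3, the ERAD genes Edem1 and Derl1, and Shmt2. The median log2 difference in WT was 0.19 for chaperones and -0.16 for ERAD, and in TG 0.28 and -0.22. No difference reached 2-fold.

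**Figure D4:**
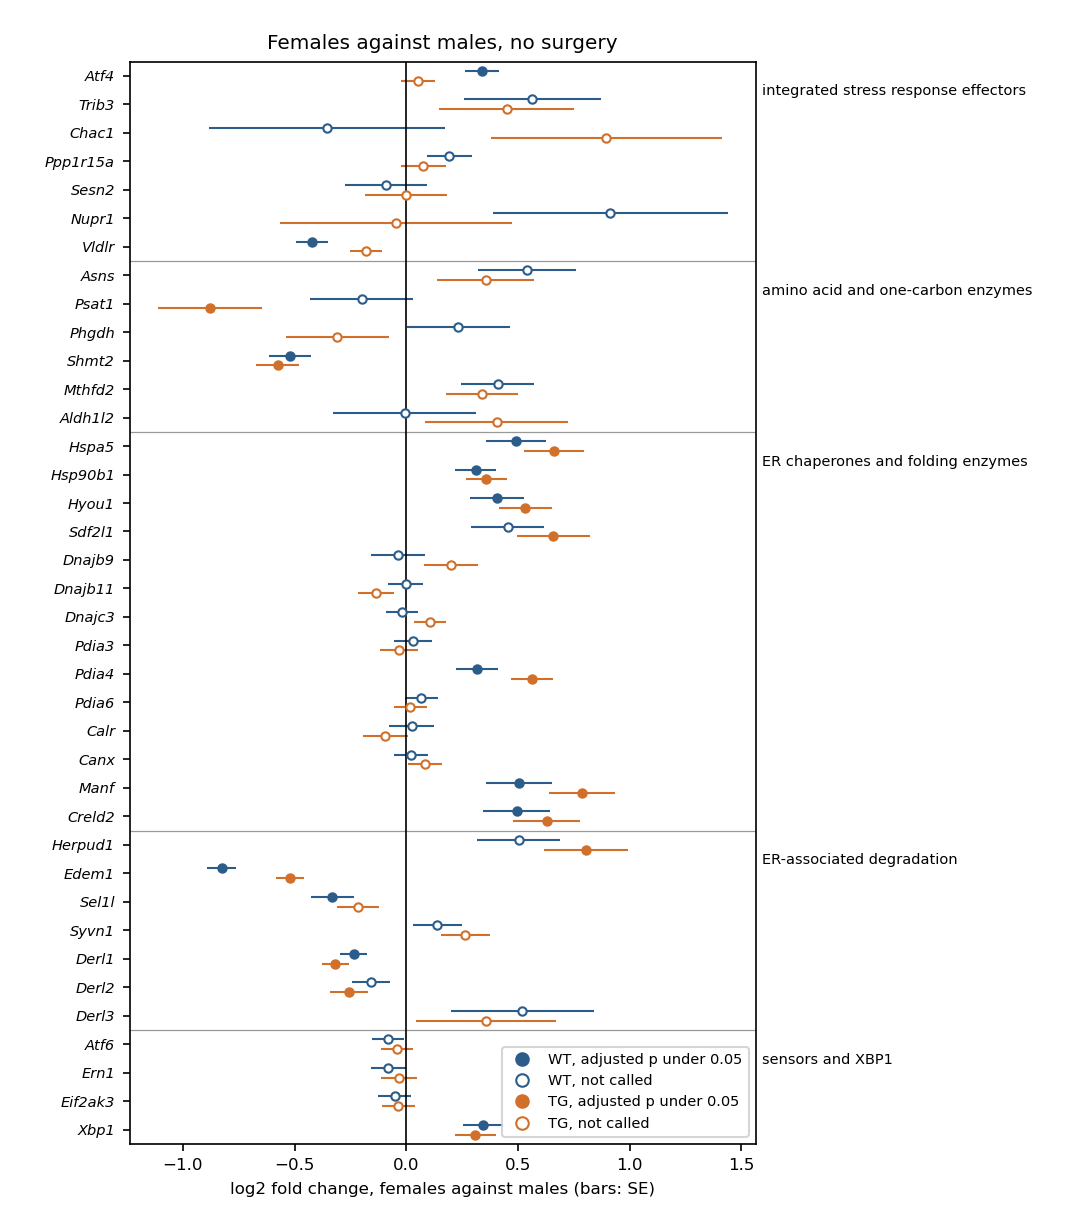
Log2 fold change of each gene in females against males without surgery, with SE bars, for WT (blue) and TG (orange); filled points have an adjusted p under 0.05. A group of chaperones led by Hspa5, Manf, Creld2 and Hyou1 lies to the right of 0, and Edem1, Derl1 and Shmt2 lie to the left in both genotypes.

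Hspa5 was 495, 484 and 478 CPM in WT males and 636, 585 and 827 in WT females, and 435, 478 and 539 in TG males and 665, 731 and 902 in TG females. Females were above males throughout, by 0.49 ± 0.13 in WT (adjusted p = 0.0202) and 0.66 ± 0.14 in TG (adjusted p = 0.00406). Manf, a secreted ER stress protein, was 46.4, 43.9 and 41.0 CPM in WT males against 60.4, 49.98 and 76.0 in WT females (0.51 ± 0.15), and 39.2, 42.1 and 44.3 against 63.7, 65.0 and 88.0 in TG (0.79 ± 0.15). Creld2, a disulfide isomerase-like protein, differed by 0.50 ± 0.15 and 0.63 ± 0.15, the ER Hsp70-family protein Hyou1 by 0.41 ± 0.12 and 0.53 ± 0.12, Pdia4 by 0.31 ± 0.09 and 0.56 ± 0.09, and Hsp90b1 (GRP94) by 0.31 ± 0.09 and 0.36 ± 0.09, in WT and TG. Sdf2l1 passed in TG (0.66 ± 0.16) and had 0.45 ± 0.16 in WT (adjusted p = 0.068). Calr, Canx, Pdia3, Pdia6, Dnajb9, Dnajb11 and Dnajc3 did not pass in either genotype, and their values lay between -0.14 and 0.20.

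Edem1 had the largest sex difference by its SE. It was 141, 143 and 129 CPM in WT males and 77.1, 75.8 and 79.5 in WT females, lower by 0.83 on the log2 scale (SE 0.06, adjusted p = 2.49e-06). In TG it was 140, 128 and 133 CPM in males and 89.4, 92.1 and 98.1 in females (-0.52 ± 0.06, adjusted p = 9.91e-05). The genotypes differed in this by 0.31 ± 0.09, which did not pass (adjusted p = 0.401). Derl1 was lower by 0.23 in WT and 0.32 in TG females, Sel1l was lower in WT (by 0.33) and Derl2 in TG (by 0.26). Herpud1 went the other way: it was higher in TG females (0.80 ± 0.19, adjusted p = 0.00891) and had 0.50 ± 0.19 in WT (adjusted p = 0.0758).

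Xbp1 was 114, 137 and 108 CPM in WT males and 145, 144 and 166 in WT females (0.34 ± 0.09), and higher in TG females by 0.31 ± 0.09. The sensors Atf6, Ern1 and Eif2ak3 did not pass and lay between -0.08 and -0.03 in both genotypes. Shmt2 had 248, 217 and 195 CPM in WT males and 166, 142 and 152 in WT females (-0.52 ± 0.10), and -0.58 ± 0.10 in TG. Psat1 was lower in TG females (-0.88 ± 0.23, adjusted p = 0.0172) and had -0.20 ± 0.23 in WT.

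Of the effectors, Atf4 was higher in WT females, at 99.1, 95.5 and 95.4 CPM against 72.0, 81.7 and 75.5 in males (0.34 ± 0.08, adjusted p = 0.00693), and had 0.05 ± 0.08 in TG. Vldlr was lower in WT females (-0.42 ± 0.07) and had -0.18 ± 0.07 in TG (adjusted p = 0.0955). The genotype by sex interaction passed for 1 of 19126 genes (0.00523%) and for none of the 38, of which 3 had an unadjusted p under 0.05 (7.89%, against 8.58% of all genes); the smallest were those of Edem1 and Atf4 (-0.29 ± 0.11, adjusted p = 0.492). With upper-quartile factors it passed for 2 genes. Nupr1 had its highest value in each of the 4 groups except TG females in replicate 1 (22.98, 27.8 and 46.0 CPM in WT males, TG males and WT females), and in TG females in replicate 2 (23.1 CPM). In those libraries the adipocyte marker sum was also the highest of its group, at 84.6, 201, 226 and 68.7 CPM, and its part was not tested.

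The calls for higher chaperones in WT females rested on few libraries. The number of members higher fell from 8 to 1 without WT female replicate 2, to 3 without WT male replicate 0, to 2 without WT male replicate 1 and to 1 without WT male replicate 2, and in TG it stayed between 6 and 9 when any one library was left out. The members lower went from 5 to 3 without WT female replicate 1, WT male replicate 0 or TG female replicate 0 in the respective comparison. Marker sums moved with sex as well: distal and collecting duct markers were 4870 to 6692 CPM in males and 8298 to 9417 in females, and podocyte markers 354 to 410 and 506 to 543. The sum of 7 proximal tubule markers was 25309 to 32820 CPM in males and 15239 to 20975 in females, but it is carried by Kap (15843 to 22031 and 5543 to 9983 CPM). Lrp2 (1607 to 2323 and 2423 to 3185 CPM) and Cubn (308 to 396 and 434 to 574 CPM) were higher in females, and the other 4 markers overlapped between the sexes. Their part in the sex differences was not tested.

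Levels without surgery and after NX, from separate tables, are given side by side without a test. Ppp1r15a had 10.7 to 12.6 CPM in WT males without surgery and 5.44 to 6.19 after NX, and Nupr1 7.18 to 22.98 and 1.96 to 4.48. Hspa5 had 478 to 495 CPM without surgery and 666 to 1117 after NX, Calr 519 to 602 and 638 to 907, and Hyou1 113 to 118 and 141 to 283. These genes are examples whose ranges do not overlap. Others did overlap, among them Dnajc3 (236 to 262 and 208 to 254 CPM), Pdia6 (175 to 189 and 176 to 234) and Sesn2 (36.8 to 68.2 and 46.9 to 62.7). The share of all genes with ranges apart was not computed here. Per kilobase, the most abundant genes of the list in WT males without surgery were Calr (195 ± 14.4 CPM per kilobase, SD, n = 3), Herpud1 (171 ± 21.1), Pdia3 (155 ± 10.1) and Hspa5 (115 ± 2.14), of which neighbours other than Hspa5 overlapped within their spread; Aldh1l2 and Derl3 were the least abundant, at 0.278 ± 0.106 and 0.295 ± 0.0447.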

How the data were processed

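Per the submitters' processing notes, reads were trimmed with fastp 0.23.2, aligned with STAR 2.7.0 and counted with featureCounts 2.0.3 on GRCm39. The deposited values are raw read counts per gene, and per the file headers they were taken over the exons of each gene of Ensembl release 112, to which an EGFP sequence had been added. The settings for strand and read pairs in the headers are not legible; 37.3 to 41.9% of counts of 10 or more were odd, so halved counts were tried. Antisense or overlapping genes may share reads (for Hsp90b1 15.7%, Aldh1l2 14.1% and Syvn1 11.1% of exon bases are shared with another gene). Symbols were found for 90.8% of identifiers; for Ddit3, which has 2, the one with more exon bases was used.

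Tests used edgeR 4.0.16 in R 4.3.3: TMM, filterByExpr, 1 coefficient per group, quasi-likelihood test, two-sided, Benjamini-Hochberg over all genes tested, threshold 0.05. Injury contrasts and their interaction used all 18 NX and IRI libraries, TG against WT after NX or IRI the 6 or 12 libraries compared, and contrasts without surgery all 12. SE is the log2 change divided by the square root of the F statistic. Code was tested on simulated data. Log2 CPM used a prior count of 2. Over 435 pairs no library was a copy of another. Intervals cover counting error only.

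Alternatives were RLE and upper-quartile factors, no filter, DESeq2 1.42.0, limma-voom 3.58.1 with sample weights, halved counts, a replicate block, other sets of libraries, a 2-fold minimum and leaving out each library. All 38 members are described; other pathway genes named are the 2 largest called changes per list and direction of at least 1 CPM in WT IRI against NX; where no member was called, the 2 smallest p-values are named, and Chac1, Atf4 and interactions of single genes were added after their values were seen. The members, lists and tests were chosen with earlier results of these data known.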

Additional observations from a re-analysis of the deposited data

Results flagged for a closer look

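After IRI, 76 sets of 6 values (38 genes in 2 genotypes) were examined for a library far from the others of its group, where chance alone flags about 1 in 20, and 3 were found. Atf4 was 382.6 CPM in TG IRI replicate 1, with the next library at 318.6 CPM. Dnajb11, a co-chaperone of BiP, was 164.2 CPM in TG IRI replicate 4, with the next at 130.8 CPM. Ppp1r15a was 91.2 CPM in WT IRI replicate 5, with the next at 118.8 CPM. The levels of the 5 branches had no such library. EGFP, which is not among the 38 genes, was at 2.59 CPM in the library labelled WT IRI replicate 1 and at 0 in the other WT libraries.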

How the results depend on the processing

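No gene of the list reversed its direction under any alternative in a comparison where it was called. Calls held under every alternative other than the 2-fold minimum for 12 of 17 genes in WT IRI against NX, 13 of 17 in TG, 4 of 13 in WT females against males and 8 of 14 in TG. In WT IRI against NX the members lower were 9 with upper-quartile factors, 7 with limma-voom, 8 without both doubted WT libraries and 1 to 7 when a single library was left out; the members higher were 11 without both and 12 to 14 with a single one left out. In TG the members lower were 7 with upper-quartile factors, 2 with only the compared groups in the fit and 0 to 1 with a library left out, and the members higher 14 to 16. A 2-fold minimum left 9 higher and 0 lower in both genotypes, and 0 in either direction by sex. Females against males gave 1 to 8 higher and 3 to 6 lower in WT, and 6 to 9 and 3 to 5 in TG, with a library left out. DESeq2 gave 1 member lower in TG against WT after IRI and 1 higher in females. The cause of these shifts was not tested. Whether same-numbered libraries were processed together is not given in the sources used here. The correlations of their deviations ran from -0.026 to 0.265 and were not over 0.1 for every pair of any 2 groups. In 5 of 12 pairs of groups, however, every same-numbered library correlated best with its own number. A shared processing step was not tested further than by the replicate block. With the replicate block the members lower were 1 in WT and 0 in TG after IRI. With only the bases before the start, UPRE was found in 0.603% and CARE in 3.89% of all genes. Chac1, Trib3 and Derl3 had the fewest counts, down to 8, 18 and 26 in a library, which limits the precision of their changes.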
